A study of Mus musculus with 36 samples.

Results

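Transcripts of 8 core clock genes were followed through the day in mouse liver. The genes are the activators Arntl (encoding the protein BMAL1), Clock and Npas2, the Period genes Per1, Per2 and Per3, and the Cryptochrome genes Cry1 and Cry2. They were taken by gene name from the deposited table of read counts, which lists 54532 genes, and all 8 were among the 17994 genes that had a sum of at least 100 counts and were tested. RNA was sequenced from the livers of 36 male mice, 3 of each genotype at each of 6 zeitgeber times (ZT, hours after lights on) spaced 4 h apart from ZT2 to ZT22. The mice were 2 to 3 months old, on a C57Bl/6NCrl background, kept with 12 h of light and 12 h of darkness and fed chow. Controls, called THRB WT here, were heterozygous (THRB+/-) for an altered allele of the gene for thyroid hormone receptor beta (THRB), and THRB KO mice were homozygous for it (THRB-/-), so both genotypes carried the allele. The allele impairs DNA binding by THRB and is present in the whole body, not in the liver alone.

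Libraries held 29063273 to 42530551 counts each. The targeted gene Thrb lay between 24.2 and 38.5 CPM (counts scaled to a common library size) in THRB WT and between 27.5 and 37.9 CPM in THRB KO mice. These ranges overlap, so the count over the whole gene does not check the genotype labels. Summed CPM of 5 hepatocyte markers (Alb, Ttr, Apoa1, Cps1 and Serpina1a) was 63310 to 86329 in THRB WT and 68276 to 95935 in THRB KO libraries, and none of the markers listed for 5 other liver cell types was at 0 in every library. Of these lists, that of Kupffer cells (liver macrophages) reached 453 CPM in a THRB WT mouse against a median of 160 CPM, and the part of cell composition in the results was not tested. In whole-liver RNA, fewer cells of a type and less RNA per cell cannot be told apart.

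The mammalian clock is a feedback loop of transcription. BMAL1 pairs with CLOCK, or with its relative NPAS2, binds E-box sequences and activates the Period and Cryptochrome genes, whose proteins gather in a complex that returns to the nucleus and represses the same activators. In a second loop, REV-ERB repressors and ROR activators compete for ROR elements in the Arntl promoter. D-boxes, bound by DBP, TEF and HLF and by the repressor NFIL3, and cAMP response elements, bound by CREB, add further inputs to some members. In liver, a widely studied peripheral clock, the phase of the loop is known to follow feeding as well as signals from the brain.

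Sequences near annotated starts are shown here for the 5 members whose windows hold the letters of an E-box, E-prime box, D-box or ROR element. Windows of 250 bases before to 50 bases after an annotated start were taken from RefSeq (GRCm38.p6) and were found for 7 of 8 members, with 11 windows in all. Per2 is not among them. Each window was searched on both strands for the E-box CACGTG, the E-prime box CACGTT, the D-box TTATGTAA, the ROR element AGTAGGTNA and the cAMP response element half-site TGACGT. No searched motif shared bases with another in these windows. Of 32851 mouse windows, 7.15% held the E-box, 4.68% the E-prime box, 0.938% the D-box, 0.591% the ROR element and 7.51% the half-site. For Per1, Per3, Cry1 and Cry2 the part of the window ahead of the first exon annotated in it is printed, and for Arntl short stretches around the motif, which lie after the start of the gene in the deposited table. All are written 5′ to 3′ on the gene's strand with the motif in capitals.
Per1, first of its RefSeq starts, chr11:69098699-69098947, plus strand, E-box at position -166 from the start: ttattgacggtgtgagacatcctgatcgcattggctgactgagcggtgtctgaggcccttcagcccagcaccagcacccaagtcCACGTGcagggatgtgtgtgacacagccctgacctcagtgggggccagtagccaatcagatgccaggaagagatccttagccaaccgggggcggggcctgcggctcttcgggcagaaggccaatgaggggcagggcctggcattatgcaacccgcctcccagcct
Per3, chr4:151044666-151044915, minus strand, D-boxes at positions -205 and -158: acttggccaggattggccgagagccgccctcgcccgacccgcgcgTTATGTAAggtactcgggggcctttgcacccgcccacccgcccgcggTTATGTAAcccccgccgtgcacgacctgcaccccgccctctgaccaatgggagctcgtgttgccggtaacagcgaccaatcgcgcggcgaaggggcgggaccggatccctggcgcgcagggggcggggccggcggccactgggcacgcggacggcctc
Cry1, chr10:85185065-85185304, minus strand, E-prime box on the opposite strand (read here as AACGTG) at position -79 and E-box at position -60: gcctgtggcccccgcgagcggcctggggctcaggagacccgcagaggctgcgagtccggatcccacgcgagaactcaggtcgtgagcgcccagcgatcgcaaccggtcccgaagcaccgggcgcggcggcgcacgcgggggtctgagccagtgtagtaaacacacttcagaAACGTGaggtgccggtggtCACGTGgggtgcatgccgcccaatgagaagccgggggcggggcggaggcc
Cry2, chr2:92434070-92434319, minus strand, E-prime box on the opposite strand (read here as AACGTG) at position -166: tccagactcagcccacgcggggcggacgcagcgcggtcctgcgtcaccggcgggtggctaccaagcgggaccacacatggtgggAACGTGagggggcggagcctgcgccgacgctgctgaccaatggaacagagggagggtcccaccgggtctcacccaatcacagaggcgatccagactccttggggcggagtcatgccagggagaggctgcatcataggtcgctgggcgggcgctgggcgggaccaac
Arntl, chr7:113207493-113207521, plus strand, ROR element at position -8 from the second start: ttggtcggaaAGTAGGTTAgtggtgcgac
Arntl, chr7:113207529-113207557, plus strand, ROR element at position 28 from the second start: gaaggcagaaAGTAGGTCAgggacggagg
Of the other windows, the second of Per1 held the half-site at position -132. The windows of Clock and Npas2 held none of the 5 motifs. A match of letters does not show binding, and the windows cover only a small stretch before each start, so sites farther away were not searched.

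Transcripts of all 8 genes changed with time of day in both genotypes, and none passed a test of genotype. Time of day was tested within each genotype by the quasi-likelihood test of edgeR, with p-values adjusted after Benjamini and Hochberg over the 17994 genes. It called 8 of 8 members in THRB WT, where 26.4% of all tested genes were called, and 8 of 8 in THRB KO, where 24.9% were. The adjusted p of the members ran from 8.14e-12 (Arntl) to 0.00014 (Cry2) in THRB WT and from 6.08e-12 (Arntl) to 0.000931 (Per1) in THRB KO livers. By rank of the p-value among all tested genes, Arntl stood at position 2 in both genotypes, and Cry1 at 9 in THRB WT and 4 in THRB KO. Per1 stood at 786 and 1297, with a wide daily course and a wide spread between mice. A cosine curve with a 24-h period, fitted to variance-stabilized counts, described all 8 as rhythmic in both genotypes (F test, unadjusted p under 0.01 in each), as it did 17.8% of all tested genes.

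**Figure D1:**
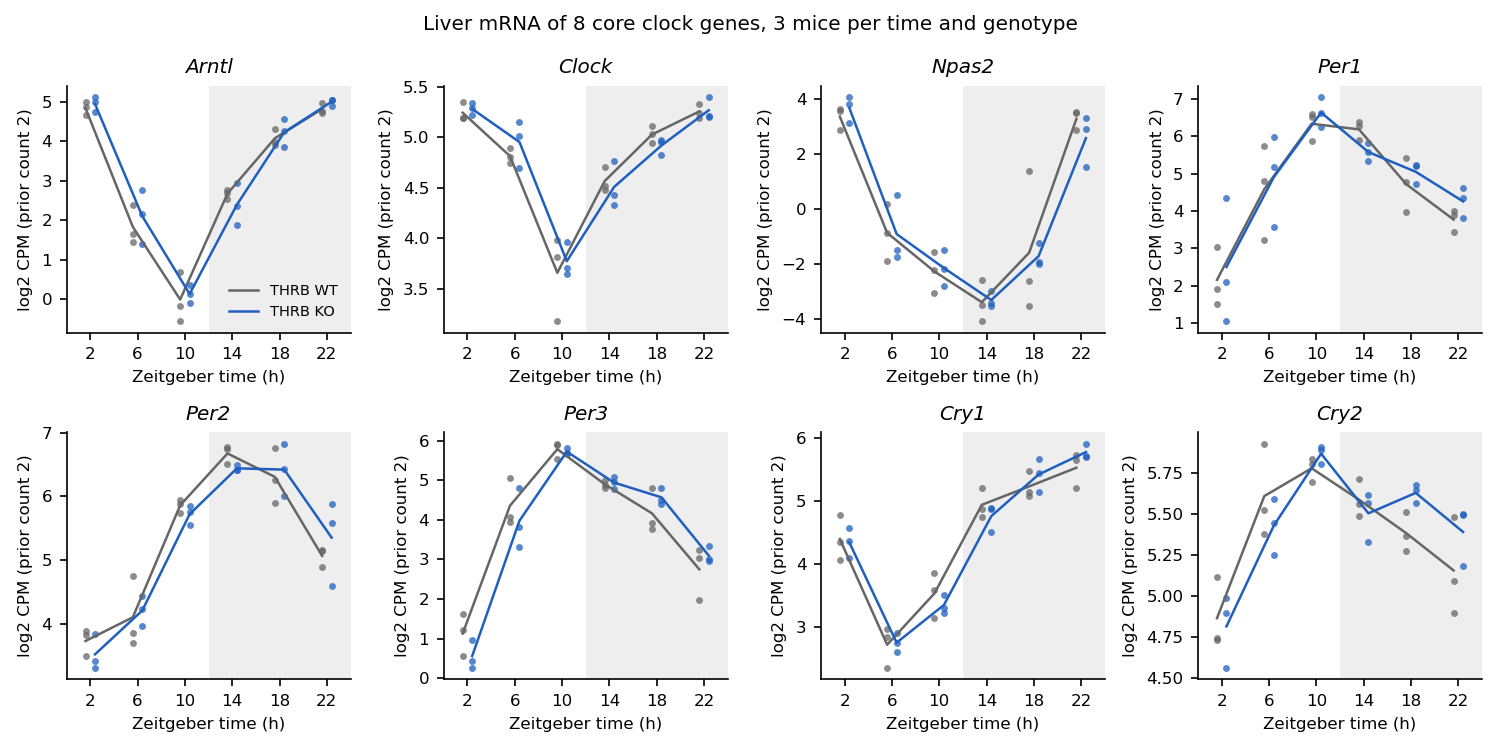
Level of each gene (log2 CPM with a prior count of 2, y axis) against zeitgeber time in hours (x axis), with a point for each mouse, 3 per time and genotype, lines through the group means, and grey shading for the dark phase. In both genotypes Arntl is lowest at ZT10 and Per1 and Per3 are lowest at ZT2, and 1 THRB KO mouse lies far above the others for Per1 at ZT2.

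Arntl (ENSMUSG00000055116, chr7:113207465-113314126, plus strand) encodes the partner that every CLOCK or NPAS2 complex needs. Its transcript was highest around lights on and fell to a low late in the light phase. At ZT2 the 3 THRB WT mice had 25.3, 31.9 and 29.1 CPM, and at ZT10 they had 1.57, 0.839 and 0.621 CPM. THRB KO mice had 26.6, 31.8 and 34.7 CPM at ZT2, and 1.23, 0.878 and 1.05 CPM at ZT10. No mouse at ZT2 or ZT22 overlapped with any at ZT10, and the 2 genotypes overlapped at every time. Means at ZT6, ZT14 and ZT18 were 3.66, 6.36 and 16.97 CPM in THRB WT and 4.57, 5.48 and 19.1 CPM in THRB KO mice, with SDs of 0.518 to 4.5 CPM (n = 3 each). The highest mean was 28.7 ± 3.34 CPM (SD, n = 3) at ZT2 in THRB WT and 32.1 ± 1.96 CPM (SD, n = 3) at ZT22 in THRB KO livers. Highest over lowest mean was 28.5-fold in THRB WT and 30.6-fold in THRB KO livers. The course was steep, and between ZT10 and ZT14 the mean changed by 2.66 log2 units in THRB WT and by 2.38 in THRB KO livers. The ROR elements printed above lie just inside its annotated start.

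Clock (ENSMUSG00000029238, chr5:76209868-76304792, minus strand) encodes the DNA-binding partner of BMAL1. It kept the phase of Arntl with a far smaller range. Its low at ZT10 was 15.7, 14 and 8.98 CPM in the THRB WT mice and 12.4, 15.5 and 13 CPM in the THRB KO mice. At ZT22 the values were 36.5, 40.2 and 37.9 CPM in THRB WT and 36.9, 36.6 and 42.1 CPM in THRB KO mice. All mice at ZT22 lay above all mice at ZT10 in both genotypes. The means at ZT2, ZT6, ZT14 and ZT18 were 37.9, 28.1, 23.7 and 32.6 CPM in THRB WT and 38.8, 31.2, 22.9 and 30.2 CPM in THRB KO mice, with SDs of 1.5 to 4.95 CPM (n = 3 each). Highest over lowest mean was 2.96-fold in THRB WT and 2.84-fold in THRB KO livers. The pseudogene Ube2n-ps1 and the locus Gm43658, which overlap it in the annotation, had means of 18.2 and 0.694 counts per library against 990.5 for Clock.

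Npas2 (ENSMUSG00000026077, chr1:39193731-39363236, plus strand) encodes a relative of CLOCK that can take its place beside BMAL1. It was the only member with a library at 0 counts, and its low fell 4 h later than that of Arntl and Clock. At ZT2 the THRB WT mice had 7.25, 12.1 and 11.7 CPM and the THRB KO mice 8.67, 14.1 and 16.5 CPM. At ZT14 the counts themselves were 0, 4 and 1 in the THRB WT mice and 1, 1 and 3 in the THRB KO mice. Mean level at ZT2 over ZT14 was 228-fold in THRB WT livers, but with 5 counts in the low group the exact 95% Poisson interval runs from 97.5-fold to 701-fold. In THRB KO livers it was 304-fold, with an interval of 130-fold to 935-fold, and both intervals cover counting error only. Of the 5 counts, 4 came from 1 THRB WT mouse, and without it the ratio was 709-fold on 1 count, with an interval of 127-fold to 28002-fold. In between, the means at ZT6, ZT10 and ZT22 were 0.581, 0.165 and 9.78 CPM in THRB WT and 0.626, 0.182 and 6.61 CPM in THRB KO mice, with SDs of 0.108 to 3.49 CPM (n = 3 each). At ZT18, 2 THRB WT mice had 0.105 and 0.0271 CPM and the third had 2.50 CPM, whereas the THRB KO mice had 0.192, 0.360 and 0.206 CPM. That THRB WT mouse lay above all 3 THRB KO mice and the other 2 lay below them, so the groups overlapped.

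Per1 (ENSMUSG00000020893, chr11:69095217-69109960, plus strand) encodes a repressor that also answers acutely to light, feeding and glucocorticoids. Its level was highest at ZT10 and lowest at ZT2. At ZT10 the THRB WT mice had 96.2, 58.9 and 91.5 CPM and the THRB KO mice 75.5, 97.3 and 131 CPM. At ZT2 they had 8.21, 2.81 and 3.73 CPM in THRB WT, and 4.28, 20.4 and 2.02 CPM in THRB KO. All mice at ZT10 were above all at ZT2, and the genotypes overlapped at both times. Its means at ZT6, ZT18 and ZT22 were 29.9, 28.4 and 13.8 CPM in THRB WT and 36.9, 33.4 and 19.5 CPM in THRB KO mice, with SDs of 2.65 to 25.7 CPM (n = 3 each). Highest over lowest mean was 16.7-fold in THRB WT and 11.4-fold in THRB KO livers. Without the THRB WT mouse at 8.21 CPM the range in THRB WT livers was 25.1-fold. Without the THRB KO mouse at 20.4 CPM the mean of its group went from 8.90 to 3.15 CPM and the range in THRB KO livers became 32.2-fold. At ZT14 the THRB WT mice had 82.5, 59.4 and 77.3 CPM and the THRB KO mice 40.6, 47.5 and 55.7 CPM, without overlap. The E-box stretch printed above precedes the first of its RefSeq starts and lies inside the gene as the deposited table bounds it.

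Per2 (ENSMUSG00000055866, chr1:91415982-91459324, minus strand) encodes the Period protein most tied to the stability of the repressor complex. It ran later than the other Period genes. At ZT14 the THRB WT mice had 107, 90.7 and 109 CPM and the THRB KO mice 89.4, 85.5 and 85.2 CPM, again without overlap, the nearest mice being 1 at 90.7 and 1 at 89.4 CPM. At ZT18 the values were 109, 76.0 and 59.7 CPM in THRB WT and 113, 85.9 and 64.1 CPM in THRB KO mice. The highest mean was that of ZT14 in THRB WT livers, 102 ± 10.1 CPM (SD, n = 3), and that of ZT18 in THRB KO livers, 87.8 ± 24.7 CPM (SD, n = 3). In THRB KO livers ZT14 stood at 86.7 ± 2.36 CPM (SD, n = 3), so ZT14 and ZT18 differed there by far less than the spread between mice. The remaining means at ZT6, ZT10 and ZT22 were 18.02, 58 and 33.5 CPM in THRB WT and 18.6, 52.8 and 43.5 CPM in THRB KO mice, with SDs of 3.05 to 17.6 CPM (n = 3 each). At ZT2 the lows were 14.7, 14 and 11.1 CPM in THRB WT and 10.5, 14.2 and 9.81 CPM in THRB KO. Highest over lowest mean was 7.71-fold in THRB WT and 7.62-fold in THRB KO livers.

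Per3 (ENSMUSG00000028957, chr4:151003652-151044665, minus strand) encodes the Period protein whose loss is known to affect the loop least. Its highest level was at ZT10, with 46.4, 59.8 and 60.8 CPM in THRB WT and 50.8, 51.5 and 56.5 CPM in THRB KO mice. Its lowest was at ZT2, with 3.0, 2.26 and 1.41 CPM in THRB WT and 1.90, 1.14 and 1.30 CPM in THRB KO mice. No mouse at ZT10 overlapped with any at ZT2, and the genotypes overlapped at both times. On the way, the means at ZT6, ZT14, ZT18 and ZT22 were 21.8, 29.9, 18.9 and 7.14 CPM in THRB WT and 17.3, 30.8, 23.9 and 8.57 CPM in THRB KO mice, with SDs of 1.3 to 10.1 CPM (n = 3 each). The range was 25-fold in THRB WT and 36.6-fold in THRB KO livers, the widest among the Period and Cryptochrome genes. Most of the ascent came early, with 3.30 log2 units between ZT2 and ZT6 in THRB WT livers and 3.58 in THRB KO. Per3 lies inside the annotated gene Camta1 on the same strand, which had a mean of 206 counts per library against 769 for Per3. Its window is the one that holds 2 D-boxes.

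Cry1 (ENSMUSG00000020038, chr10:85131700-85185064, minus strand) encodes the strongest repressor of the activators and is known for a late peak that sets the length of the repressive phase. Here it was highest at ZT22, with 52.8, 50.1 and 37.0 CPM in THRB WT and 52.1, 52.4 and 60.0 CPM in THRB KO mice. It was lowest at ZT6, with 5.07, 7.11 and 7.80 CPM in THRB WT and 6.67, 7.47 and 6.05 CPM in THRB KO mice. All mice at ZT22 were above all at ZT6, and the genotypes overlapped at both. For the other times, the means at ZT2, ZT10, ZT14 and ZT18 were 21.5, 11.8, 30.9 and 37.8 CPM in THRB WT and 20.5, 10.2, 27.2 and 43.2 CPM in THRB KO mice, with SDs of 1.05 to 7.82 CPM (n = 3 each). Highest over lowest mean was 7.0-fold in THRB WT and 8.15-fold in THRB KO livers. The log2 change of its mean from ZT22 to ZT2 was -1.12 in THRB WT livers and -1.42 in those of THRB KO mice, an interval over which the mean of Arntl changed by 0.02 and -0.05. Its window holds an E-box and an E-prime box within a short distance of each other.

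Cry2 (ENSMUSG00000068742, chr2:92403646-92434043, minus strand) encodes the second Cryptochrome, also a repressor of the activators. It was highest at ZT10, with 51.8, 55.8 and 56.8 CPM in THRB WT and 59.1, 55.8 and 60.0 CPM in THRB KO mice. It was lowest at ZT2, with 26.5, 34.7 and 26.8 CPM in THRB WT and 23.6, 31.7 and 29.7 CPM in THRB KO mice. The ZT10 and ZT2 mice did not overlap. The means at ZT6, ZT14 and ZT22 were 49.4, 48.1 and 36.1 CPM in THRB WT and 43.2, 45.4 and 42.1 CPM in THRB KO mice, with SDs of 3.89 to 10.1 CPM (n = 3 each). The range was only 1.87-fold in THRB WT and 2.06-fold in THRB KO livers. At ZT18 the THRB WT mice had 45.5, 41.1 and 38.6 CPM and the THRB KO mice 47.3, 51.0 and 49.9 CPM, without overlap. Libraries did not keep strand, and the annotated transcript D930015M05Rik overlaps Cry2 on the opposite strand with a mean of 9.78 counts per library against 1496 for Cry2.

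Levels of different genes were compared only per kilobase (kb) of gene length. The lengths were those of the deposited table, such as 13.7 kb for Clock, 7.52 kb for Arntl and 3.34 kb for Cry1. They may differ from the lengths of the transcripts in liver, and the order of the genes depends on them. Averaged over all 18 THRB WT mice, Per2 stood at 8.72 CPM per kb, Cry1 at 7.75, Per1 at 6.87 and Cry2 at 6.84 CPM per kb. Then came Per3 at 2.35, Clock at 2.10, Arntl at 1.89 and Npas2 at 0.759 CPM per kb. The repressor genes other than Per3 thus lay above the activators, and the order in THRB KO livers was that of Per2 at 8.56, Cry1 at 8.12, Per1 at 7.34, Cry2 at 7.03, Per3 at 2.34, Clock at 2.13, Arntl at 2.07 and Npas2 at 0.723 CPM per kb. Over the day the values of each gene had an SD of 0.674 (Clock) to 5.99 (Per2) CPM per kb in THRB WT mice. Neighbours in this order differed by less than the larger of their SDs in both genotypes, except Cry2 and Per3, whose SDs were 1.61 and 1.94 CPM per kb in THRB WT and 1.56 and 1.83 in THRB KO livers.

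The fitted peaks followed each other around the day, from the Period genes and Cry2 to the activators. Each is the top of a 24-h cosine curve, from which several members departed (below), and need not be the time of the highest mean. In both genotypes the highest mean of Cry1 was at ZT22 and that of Per3 at ZT10. The SE of a peak holds for that curve only. In THRB WT livers Cry2 peaked at ZT 11.4, Per3 at 12.0, Per1 at 12.5, Per2 at 15, Cry1 at 19.2, Arntl at 22.0, Clock at 22.8 and Npas2 at 0.21 h. In THRB KO livers the times were 13.1 for Cry2, 12.8 for Per3, 12.3 for Per1, 15.4 for Per2, 19.6 for Cry1, 22.2 for Arntl, 23.4 for Clock and 0.66 h for Npas2. Peaks of Cry2, Per3 and Per1 lay close together within their errors, the SE being 0.809, 0.509 and 0.581 h in THRB WT livers. Per2 and Cry1 stood apart from each other and from these, with an SE of 0.299 and 0.345 h. The amplitude, which is the distance from the daily mean to the peak of the curve on the variance-stabilized scale, was largest for Npas2 (2.02 in THRB WT and 1.93 in THRB KO) and Arntl (1.90 and 1.99). That scale is compressed against log2 at low counts, such as those of Npas2 at its low. The log2 of highest over lowest mean CPM was 7.83 and 8.25 for Npas2, against 4.83 and 4.94 for Arntl. The amplitude was 1.78 and 1.45 for Per1, 1.73 and 1.78 for Per3, 1.47 and 1.44 for Per2, and 1.23 and 1.37 for Cry1. Clock, with 0.66 and 0.63, and Cry2, with 0.38 and 0.34, had small amplitudes, though both were above the median of all tested genes, 0.14 and 0.13.

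**Figure D2:**
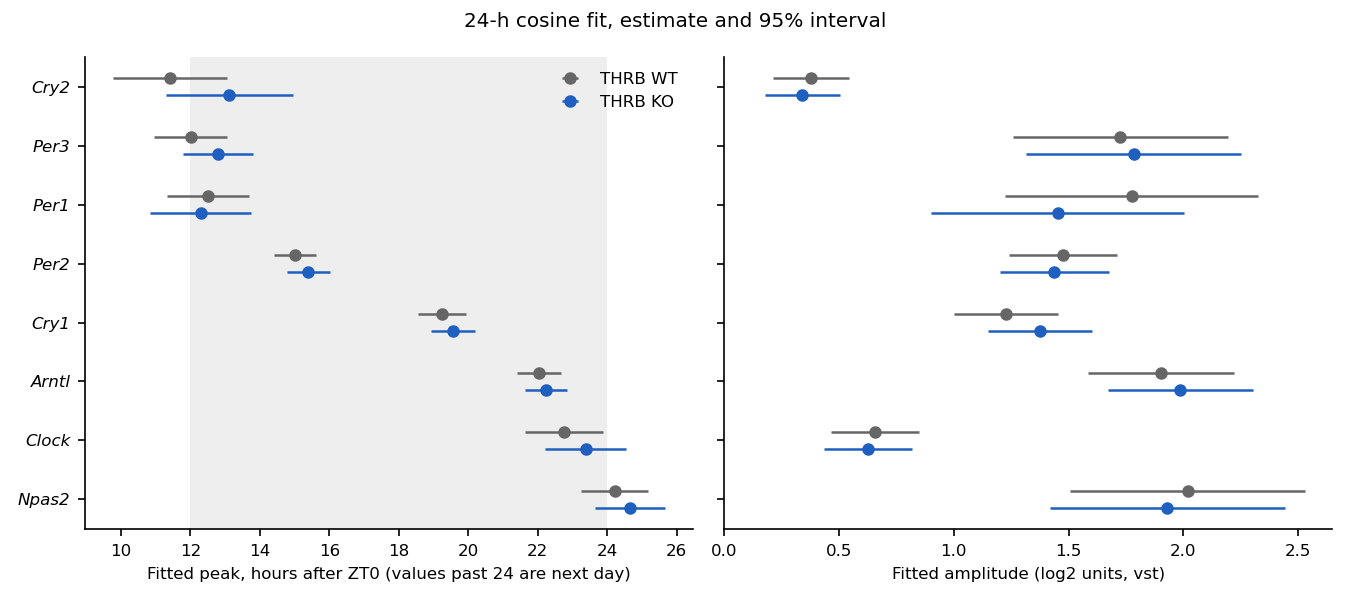
Fitted peak time in hours after ZT0 (left x axis, values past 24 belong to the next day, grey shading marks the dark phase) and fitted amplitude on the variance-stabilized scale, which is compressed against log2 at low counts (right x axis), of each gene, with points for THRB WT and THRB KO and bars for 95% intervals. The peaks run from Cry2, Per3 and Per1 near ZT12 through Per2 and Cry1 to the 3 activators around ZT22 to ZT1, and the intervals of the 2 genotypes overlap for every gene.

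For several members the daily course was not a plain sine wave. Departure from it, tested by edgeR on the higher harmonics shared by both genotypes, was called for 5 of 8 members, Per3, Arntl, Clock, Cry1 and Cry2, with adjusted p between 5.55e-06 and 0.00974, and for 3.17% of all tested genes. Arntl and Clock had a narrow low at ZT10 and a broad plateau from ZT22 to ZT2. Per3 left its low within 4 h, was highest at ZT10 and stood lower at each later time. Npas2 (adjusted p = 0.418), Per1 (adjusted p = 0.19) and Per2 (adjusted p = 0.175) were not called. Leaving out the THRB KO mouse with 20.4 CPM of Per1 at ZT2 added Per1 to the called members, and leaving out the THRB WT mouse with 2.50 CPM of Npas2 at ZT18 added Npas2.

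Genotype was then tested with time of day as a factor, which asks whether THRB loss shifts the level of a clock gene over the whole day. None of the 8 members was called by edgeR's quasi-likelihood test, where 0.95% of all tested genes were, and none had an unadjusted p under 0.05, nor did DESeq2 call any. With letter and time together as a block, which pairs a THRB WT with a THRB KO mouse, 387 genes in place of 171 were called, and 0 of 8 members. The log2 fold change of THRB KO over THRB WT was 0.11 (SE 0.11) for Arntl, 0.02 (SE 0.05) for Clock and -0.27 (SE 0.32) for Npas2. Among the repressors it was 0.25 (SE 0.23) for Per1, -0.01 (SE 0.10) for Per2, -0.03 (SE 0.13) for Per3, 0.00 (SE 0.08) for Cry1 and 0.04 (SE 0.06) for Cry2. The smallest adjusted p was 0.734, that of Per1. A p that misses the threshold does not show equal levels, and the intervals say what the data allow. The 95% interval of the log2 fold change was -0.09 to 0.13 for Clock, -0.08 to 0.16 for Cry2, -0.16 to 0.16 for Cry1, -0.22 to 0.20 for Per2 and -0.11 to 0.32 for Arntl. It was wider for Per3, -0.30 to 0.25, for Per1, -0.22 to 0.72, and for Npas2, -0.93 to 0.39. The value of Npas2 rested on 1 mouse, since without the THRB WT mouse with 2.50 CPM at ZT18 it was 0.06. Likewise, Per1 went to 0.06 without the THRB KO mouse with 20.4 CPM at ZT2. The median over the members was 0.01, and that over all tested genes was 0.00.

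At the single times, which ask whether a difference is limited to a phase of the day, the test called 0 of 8 members at every time. The share of all tested genes called was 0.0278% at ZT2, 0.0111% at ZT6, 0.0167% at ZT10, 0.0167% at ZT14, 0.0222% at ZT18 and 0.0222% at ZT22, so at these group sizes few genes of any kind passed. Of the 48 values for members, 0 had an unadjusted p under 0.05 by edgeR, and DESeq2 called none. The lowest p was that of Npas2 at ZT18, with a log2 fold change of -1.76 (SE 0.91, adjusted p = 0.931 by edgeR). Without the THRB WT mouse with 2.50 CPM it was 1.96 (SE 1.18), of the opposite sign. Cry2 at ZT18 had a log2 fold change of 0.24 (SE 0.14, adjusted p = 0.967 by edgeR), although its 3 THRB KO mice lay above its 3 THRB WT mice. Per1 at ZT14 had -0.61 (SE 0.56) and Per2 at ZT14 had -0.24 (SE 0.25), the other values in which the genotypes did not overlap. Groups without overlap were thus found in 3 of 48 pairs of groups, against 9.96% over all tested genes and times. Each SE at a single time rests on a spread estimated per gene over all 12 groups, not on the mice of that time alone. For Per1 the SD between mice was 0.25 and 0.23 log2 CPM at ZT14 in THRB WT and THRB KO livers, against 0.79 and 1.68 at ZT2. The number of members with a higher THRB KO estimate was 4 at ZT2, 6 at ZT6, 5 at ZT10, 1 at ZT14, 6 at ZT18 and 7 at ZT22, none of these being a tested value. Members were measured in the same mice and several ran together, so they are not separate observations. The share over all tested genes was not computed, and these counts were not read as a result.

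**Figure D3:**
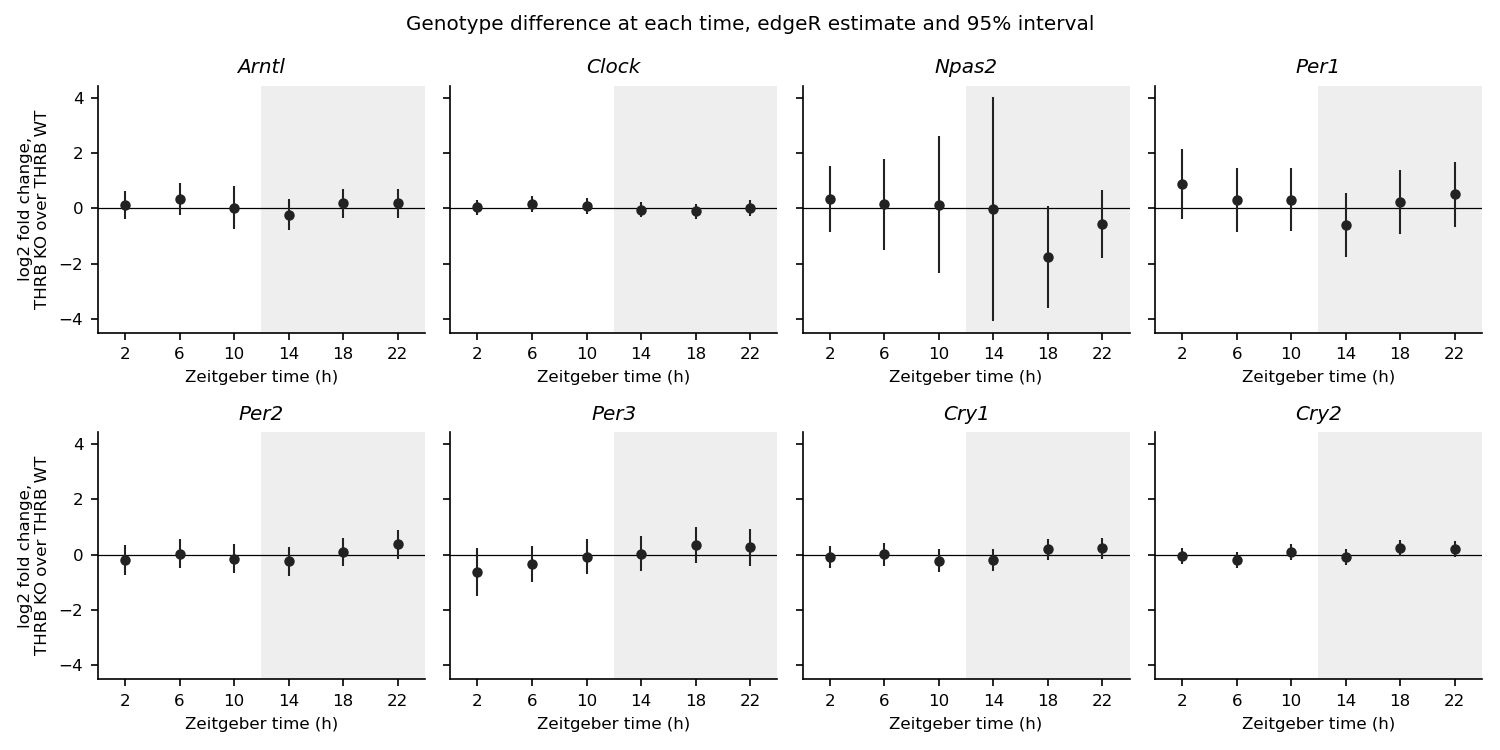
Log2 fold change of THRB KO over THRB WT (y axis) at each zeitgeber time in hours (x axis) for each gene, with a point for the edgeR estimate, a bar for its 95% interval and grey shading for the dark phase. All 48 intervals include 0, and those of Npas2 are widest at ZT10 and ZT14, where its counts are lowest.

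Whether the daily course itself differed between genotypes was asked by the interaction of genotype and time. It called 0 of 8 members and 0 genes in all (0% of tested genes) by edgeR's quasi-likelihood test, with 484 genes but no member at an unadjusted p under 0.05, and DESeq2 called 0 genes as well. The unadjusted p of the members ran from 0.212 (Cry2) to 0.80 (Arntl). From the cosine fits, the daily mean (mesor) called 0 of 8 members at an unadjusted p under 0.05, against 11.2% of all tested genes, and the amplitude called 0 of 8, against 1.79%. The largest difference in amplitude was that of Per1, -0.32 (SE 0.38) on the variance-stabilized scale. Phase, compared for the 3205 genes rhythmic in both genotypes, called 0 of 8 members, against 4.77% of those genes. Estimated peaks were later in THRB KO livers for 7 of 8 members, by 0.22 h (SE 0.43) for Arntl, 0.62 h (SE 0.79) for Clock, 0.45 h (SE 0.69) for Npas2, 0.37 h (SE 0.43) for Per2, 0.79 h (SE 0.71) for Per3, 0.31 h (SE 0.46) for Cry1 and 1.71 h (SE 1.21) for Cry2. That of Per1 was earlier by a difference of -0.21 h (SE 0.92). The median of the members was 0.412 h and that of all genes compared was 0.391 h. The interval for Arntl, -0.67 to 1.10 h, and that for Per2, -0.50 to 1.25 h, are narrower than the 4-h spacing of the samples, and that for Cry2, -0.76 to 4.18 h, is wider.

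The balance between activators and repressors was read within each mouse as the log2 ratio of their counts per kb. A pseudocount of 0.5 was added, and the size of the library cancels in the ratio. The sign of a ratio depends on the gene lengths of the deposited table, whereas its swing between times does not. Arntl over Per2 was 0.42, 0.83 and 1.02 in the THRB WT mice at ZT2 and 0.97, 0.80 and 1.46 in the THRB KO mice. At ZT10 it was -5.58, -6.33 and -6.95 in THRB WT and -5.80, -6.37 and -5.83 in THRB KO mice. Every mouse thus had more Arntl than Per2 transcript per kb at ZT2 and far more Per2 at ZT10, with the genotypes overlapping at both times. The swing between the means of these times was 132-fold in THRB WT and 135-fold in THRB KO livers. For Arntl over Per1 it was 546-fold and 513-fold, the latter becoming 962-fold without THRB KO mouse b at ZT2 and 291-fold without mouse c. For Arntl over Per3 it was 779-fold and 1085-fold. Over Cry2 the swing of Arntl was 56.7-fold and 60.7-fold. Clock gave smaller swings, 13.2-fold over Per2 in both genotypes and 5.67-fold and 5.92-fold over Cry2. Cry1 over Per2, a ratio between repressors, moved from 1.48 ± 0.43 (SD, n = 3) at ZT2 to -1.51 ± 0.29 (SD, n = 3) at ZT10 in THRB WT livers and from 1.64 ± 0.20 to -1.56 ± 0.15 (SD, n = 3) in THRB KO livers. Per kb, Cry1 transcript was thus above Per2 at ZT2 and below it at ZT10 in both genotypes, and the mice of these times did not overlap. In all, 16 ratios at 6 times gave 96 comparisons of genotype, and in 1 of them, Clock over Cry2 at ZT18, the mice did not overlap, against 9.96% for the CPM of single genes given above. The ratios reuse the same 8 genes. In Clock over Cry2 at ZT18 the THRB WT mice had -1.69, -1.37 and -1.36 and the THRB KO mice -1.73, -1.82 and -1.94; the nearest mice stood at -1.69 and -1.73. This ratio holds the Cry2 values at ZT18 given above.

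**Figure D4:**
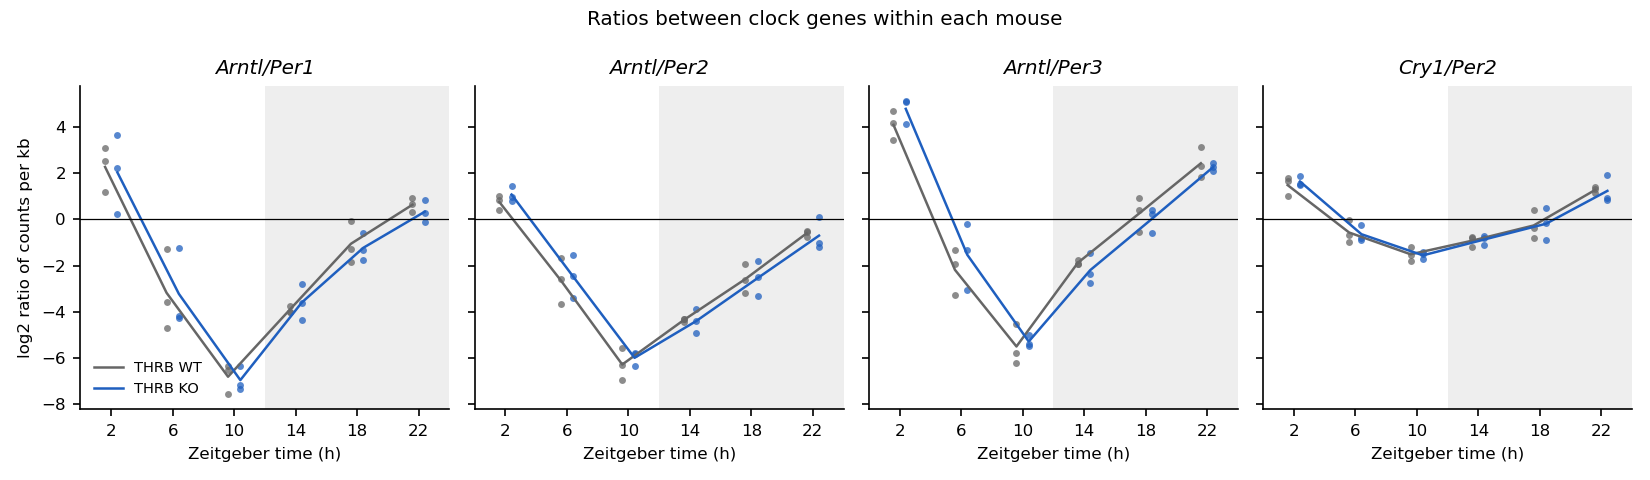
Log2 ratio of counts per kb (y axis) of Arntl over Per1, Per2 and Per3 and of Cry1 over Per2 against zeitgeber time in hours (x axis), with a point for each mouse, lines through the group means and grey shading for the dark phase. All 4 ratios are highest at ZT2 and lowest at ZT10 in both genotypes.

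Over the 12 means of genotype and time, Per1 and Per3 ran together (Pearson's r = 0.97 of log2 CPM), as did Per3 and Cry2 (r = 0.97) and Arntl and Clock (r = 0.92). Npas2 ran opposite to Per3 (r = -0.90) and Per1 (r = -0.89). Cry1 was nearest to Arntl (r = 0.72), and Per2 was weakly related to Arntl (r = -0.25). These values are descriptions over 12 points that share the same mice and the same daily cycle. By the same measure, the genes outside the set with the pattern most like each member were named, up to 3 for each. For Arntl they included Nectin1 (r = 0.99), a cell adhesion protein, and Trim2 (r = 0.99), and for Clock they were Cldn1 (0.98), a tight junction protein, Fam89a (0.98) and Mpzl1 (0.98). Npas2 was most like Loxl4 (0.98), Rnf125 (0.97) and Rnf144a (0.95). Per1 was most like Ciart (0.98), a repressor of the activators, Wee1 (0.98), a kinase that restrains entry into mitosis, and Lrp4 (0.97). Wee1 also came first for Per3 (0.99), before Usp2 (0.97), a deubiquitinase, and Tef (0.97), a D-box factor. Per2 was followed by Tspan4 (0.99), Ppp1r15b (0.98) and Tk1 (0.98), Cry1 by Pfas (0.98), Lman2 (0.98) and Prkar2a (0.97), and Cry2 by Tmem219 (0.98), Tef (0.95) and Mknk2 (0.95).

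Mice killed at the same time differed more in these genes than in most others of like level. The SD between mice within a time, pooled over the 6 times, was 0.71 log2 CPM for Per1 in THRB WT livers and 0.89 in THRB KO. Its 1165 neighbours in level, within 0.25 log2 CPM of its mean, had a median of 0.14 and 0.13, and Per1 stood at percentile 99.3 and 99.4 among them. Npas2 had 1.24 and 0.74 (percentile 98.7 and 93.0), on few counts at its low. Per3 had 0.50 and 0.37, Arntl 0.36 and 0.41, Per2 0.32 and 0.36, and Cry1 0.30 and 0.20. Cry2, with 0.20 and 0.15, and Clock, with 0.19 and 0.16, stood nearest to their neighbours, whose medians were 0.13 and 0.13 for Cry2 and 0.14 and 0.13 for Clock. All 16 of these SDs were above the median of like-level genes. For comparison, 76 tested genes with an amplitude of at least 1 in both genotypes and a mean of at least 1 CPM, 6 of them members, had a median SD of 0.45 and 0.45. It was 0.18 and 0.18 for all tested genes with a mean of at least 1 CPM. Only Per1 and Npas2 exceeded the medians of the 76 genes in both genotypes, and Per3 did so in THRB WT livers. The other members lay below these medians, so a wide spread was not particular to the clock genes.

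**Figure D5:**
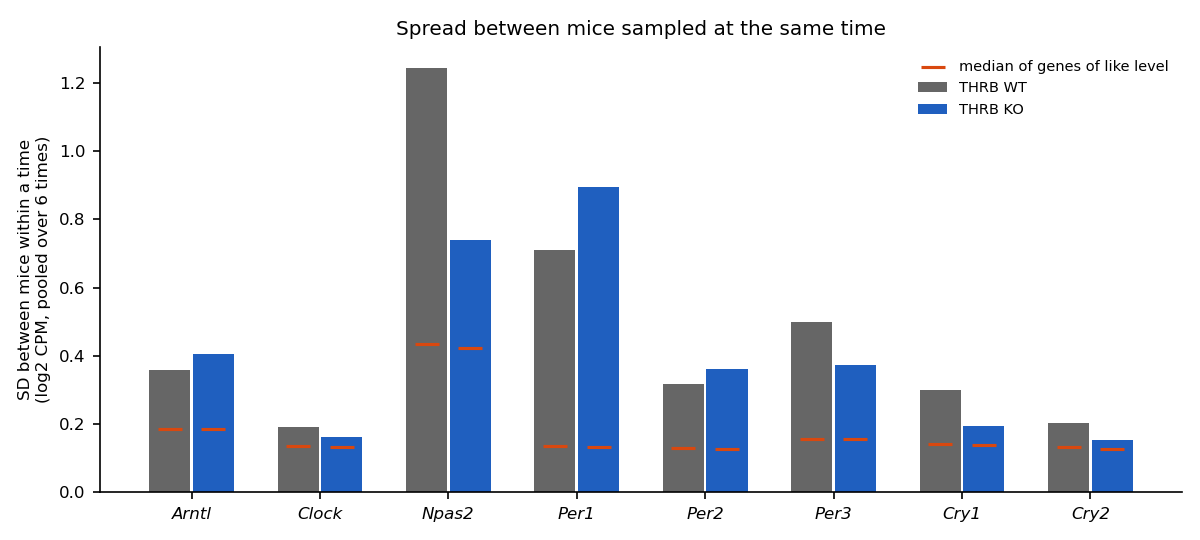
SD between mice within a time in log2 CPM, pooled over 6 times (y axis), for each gene, with bars for THRB WT and THRB KO and a mark for the median of tested genes of like level. Every bar lies above its mark, and those of Per1 and Npas2 stand highest.

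Some differences between mice were seen in several members at once. Mice carry a letter, a, b or c, in the sample labels, which do not say what it stands for. Over the 8 members and 6 times, the mouse with the highest level had the same letter in both genotypes in 22 of 48 cases, and that with the lowest in 18 of 48. With 3 letters, 1 in 3 cases would match if the letter carried no information. The share over all tested genes was not computed, so these counts were not read as a result about the members. By time, this was 3 to 5 of 8 members for the highest and 1 to 6 of 8 for the lowest mouse. At ZT6, when the Period genes climb and Arntl falls, mouse b of each genotype had the highest Arntl (5.21 CPM in THRB WT, 6.74 in THRB KO) and the lowest Per1 (9.36 and 11.8 CPM). Mouse c of each genotype had the highest Per1 there (52.8 and 63.1 CPM), so the 3 mice of a group spanned 5.64-fold in THRB WT and 5.36-fold in THRB KO livers. In THRB WT mouse c was also highest for Per2 (26.8 CPM), Per3 (33.4 CPM) and Cry2 (60.8 CPM) and lowest for Arntl (2.66 CPM). In THRB KO it was mouse a, not c, that had the highest Per2 (21.6 CPM) and Per3 (27.9 CPM) and the lowest Arntl (2.57 CPM). At ZT18, mouse c of each genotype had the highest Arntl (19.9 and 23.6 CPM) and Cry1 (44.5 and 50.8 CPM) and the lowest Per2 (59.7 and 64.1 CPM) and Per1 (15.6 and 26.5 CPM). Mouse a of each genotype was highest there for Per2 (109 and 113 CPM) and Per3 (27.9 and 27.8 CPM) and lowest for Arntl (15.1 and 14.6 CPM), but the highest Per1 was that of mouse b in THRB WT (42.3 CPM) and of mouse a in THRB KO (37.1 CPM). No single order of the mice thus held for all members, and the part of the exact hour of sampling was not tested. In THRB KO mouse b at ZT2, Per1 (20.4 CPM) and Per2 (14.2 CPM) were the highest of the group, Per3 (1.14 CPM) was the lowest, and Arntl (31.8 CPM) lay between the other 2.

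Genes that act on or beside these 8 were read from 3 lists of regulators. Of 21 regulators of the PER and CRY proteins (kinases, ubiquitin ligases and others), all tested, 9 changed with time in THRB WT livers and 8 in THRB KO, against 26.4% and 24.9% of all tested genes. Of 12 cofactors of the activators, 6 changed with time in each genotype. The second loop and its output factors had 9 of the 10 tested genes (of 11 listed) called for time in each genotype. None of these genes passed the genotype test in either direction, any single time or the interaction. An unadjusted p under 0.05 for genotype was found for 6 of the 21 regulators and for none of the other 2 lists, against 12.1% of all tested genes. Most of these 6 had a higher estimate in THRB KO livers. The median log2 fold change was 0.00 for the regulators, 0.03 for the cofactors and 0.02 for the second loop, against 0.00 over all tested genes.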

How the data were processed

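Livers of 36 mice were sequenced by the authors from poly-A RNA in non-directional libraries, 3 mice per genotype and time, grouped by the sample labels. Per the labels and methods, read pairs were mapped to GRCm38 (mm10) with HISAT2 and counted per gene with featureCounts; versions, annotation release and the treatment of reads with several matches are not given in the sources used here. The authors deposited whole-number counts without normalization or filter. Lengths and coordinates are those of the deposited table.

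A gene was tested where its counts summed to at least 100 over the libraries. After TMM scaling, a quasi-likelihood model (edgeR 4.0.16 with limma 3.58.1 in R 4.3.3) was fitted to the 12 groups, or to genotype and time as factors, and p-values adjusted after Benjamini and Hochberg were called under 0.05. CPM use TMM library sizes, and log2 CPM a prior count of 2. Only the CPM of Thrb and of the cell type markers use plain library totals, without TMM scaling. A cosine with a 24-h period was fitted to counts transformed by vst (DESeq2 1.42.0), after the model of CircaCompare, with a threshold of 0.05 on unadjusted p. Ratios, motif searches and figures were made in Python 3.11.15 (numpy 2.4.6, scipy 1.17.1, pandas 2.3.3, matplotlib 3.10.9). Scripts were tested on simulated data. Libraries of 29063273 to 42530551 counts limit the precision of genes near 0 counts, and counting intervals cover counting error only.

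The 8 genes, the lists and the tests were chosen with earlier results of these data known. All 8 were named, with the 3 genes of at least 1 CPM most correlated with each, overlapping genes, and list genes only where a genotype test was passed; 1 gene that this rule names is not reported here. As alternatives, DESeq2 and its size factors were used, with other filters and log2 CPM. Terms with a period of 12 h, a replicate block, and each mouse left out in turn were used as well. In the tests of genotype and of interaction this block was letter and time together, which pairs a THRB WT with a THRB KO mouse. For time of day, departure from a sine wave and the cosine fits it was the letter alone. Lipid data and cell cultures of the study were not analysed here.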

Additional observations from a re-analysis of the deposited data

How the results depend on the processing

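No alternative changed a call on genotype, phase, amplitude, mesor or interaction for any of the 8 members, except that the phase of Cry2, no longer rhythmic in THRB KO livers without mouse b or c at ZT2, was then not compared, and time of day stayed called for all 8 in both genotypes under every alternative run. Departure from a sine wave was called for 5 to 6 members when a mouse was left out. Ratios in which the genotypes did not overlap numbered 1 to 7 of 96 when a mouse was left out, which leaves 2 mice in a group.

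Over all tested genes, the genotype effect adjusted for time was called for 171, against 315 by DESeq2 and 387 with the replicate block, and departure from a sine wave for 570, against 1011 by DESeq2. At single times the counts were small and moved with the setting. At ZT2 5 genes were called, and 2 with only the 6 libraries of that time. At ZT6 it was 2, against 7 by DESeq2, 6 with no filter, 5 with only that time and 8 with the block. At ZT10 it was 3, against 5 and 1 (DESeq2, only that time). At ZT14 it was 3, against 7 and 6 (DESeq2, no filter). At ZT18 it was 4, against 8 by DESeq2 and 8 with the block. At ZT22 it was 4, against 19, 15, 11 and 9 (DESeq2, no filter, only that time, block). Leaving out a mouse gave 2 to 6 at ZT2, 2 to 4 at ZT6, 1 to 4 at ZT14, 1 to 5 at ZT18 and 2 to 12 at ZT22.

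The letters a, b and c were not taken as pairs in the main tests. Over 18 pairs of mice with the same letter and time, deviations from the group means correlated between -0.06 and 0.39, with 16 of 18 over 0.1, and 33 of 36 mice correlated best with their own letter, a hint from the data. In the labels, 34 of 36 mice had their own letter's mouse as the nearest in animal number among those of the other genotype at that time, but no source says what a letter or number marks. With the replicate block, which pairs mice of the same letter and time, 0 of 8 members were called for genotype.

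At single times, with 3 mice per group, SE were 0.14 to 1.98 log2 units and rested on the spread between mice over all groups. Differences of the size of that spread were not detectable there, least of all for Npas2 near its low.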
